A study of Mus musculus with 6 samples.

Results

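The markers described here are 9 genes used to recognise the macrophages that live in the healthy vessel wall: Lyve1, Folr2, Cbr2, Mrc1, Cd163, F13a1, Maf, Adgre1 and Lyz2. They were found as the array probe sets whose platform annotation names one of these symbols, which gave 15 of the 45101 probe sets, with 6 for Maf, 2 for Lyve1 and 1 for each of the other 7 genes. Aortic total RNA was hybridised to 3 arrays for each genotype. The wild-type group was C57BL/6J, the other group was C57BL/6J carrying apoE-/-, and both were 32 weeks old. Mice without apolipoprotein E accumulate cholesterol-rich lipoproteins and develop atherosclerotic plaques. The labels do not give the sex, the diet, the number of animals per array, or whether replicates came from separate animals, so every p-value refers to the spread among these preparations, part or all of which may be technical.

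Macrophages of the arterial adventitia and intima are in part long-lived residents that maintain themselves locally, and in part descendants of blood monocytes that enter the wall during inflammation. Residents around vessels typically carry the hyaluronan receptor Lyve1, the folate receptor Folr2 and the scavenger receptors Mrc1 and Cd163, and the transcription factor Maf takes part in keeping this state. Adgre1 (the F4/80 antigen) and Lyz2 (lysozyme M) are shared by macrophages of many origins, and monocytes carry both. In whole aorta a change in signal may come from more or fewer cells of a type or from more or less RNA per cell, and these cannot be told apart. None of the 9 genes is restricted to macrophages in every tissue: lymphatic endothelium also makes Lyve1, platelets carry F13a1, and neutrophils contain lysozyme.

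Intensities below are array units as deposited, already scaled so that every array has nearly the same trimmed mean. Array medians lay between 178 and 195.5 units. Apoe read 4309 to 5686 units in the wild-type group and 56.3 to 462 in the apoE-/- group, which matched all 6 labels. Smooth muscle genes, the defining markers of aortic media, had a summed intensity of 70865 to 80376 units in wild type and 62413 to 75068 in apoE-/-. All 20 listed genes of macrophages in general were above the filter on low intensity.

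Of the 9 markers, 4 rose in apoE-/- aorta and none fell. The 4 were Lyz2, Adgre1, Folr2 and Mrc1, with ratios of mean intensity between 1.64 and 2.75. Lyve1, Cd163, Cbr2, F13a1 and Maf did not pass the test. Among all 13031 genes tested, 3.15% rose by the same criterion (limma, Benjamini-Hochberg adjusted p under 0.05) and 0.483% fell. The median log2 change of the 9 markers was 0.29, against -0.05 over all genes tested. At an unadjusted p under 0.05, 5 markers were higher and 0 lower, and of all genes tested 9.56% were higher and 8.81% lower at that threshold. All log2 changes are differences of mean log2(intensity + 16), apoE-/- minus wild type, and their adjusted p-values are from limma over all genes.

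**Figure D1:**
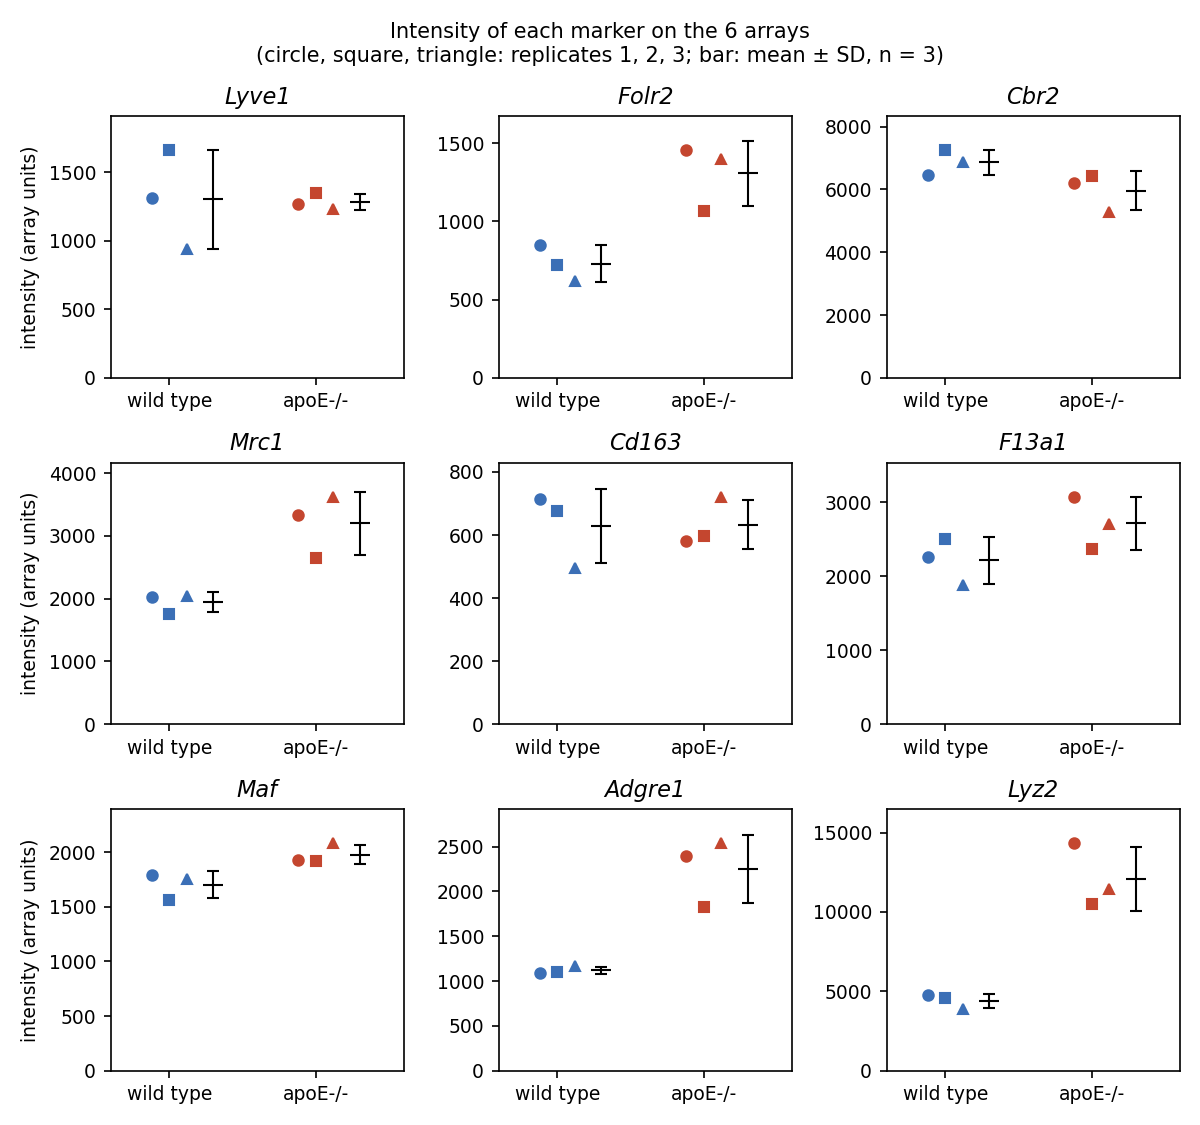
Intensity in array units (vertical axis, linear from 0) of each of the 9 markers on the 3 wild-type (blue) and 3 apoE-/- (red) arrays, with 1 probe set per gene. Symbols mark replicates 1 to 3 and bars the mean ± SD (n = 3). Lyz2, Adgre1, Folr2, Mrc1 and Maf have all apoE-/- points above all wild-type points, Cbr2 has them all below, and Lyve1, Cd163 and F13a1 overlap. Of all genes tested, 10.9% have all apoE-/- points above and 13.8% all below.

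The pan-macrophage markers moved most. Lyz2, which encodes the bacteriolytic enzyme lysozyme of myeloid cells, read 4743, 4560 and 3859 units in wild-type replicates 1 to 3 and 14331, 10503 and 11422 units in apoE-/- replicates 1 to 3. The lowest apoE-/- array was thus far above the highest wild-type array. The log2 change was 1.45 ± 0.13 (SE, limma adjusted p = 0.00111), a 2.75-fold ratio of means. Adgre1, an adhesion receptor of the cell surface, read 1090, 1104 and 1162 units in wild type and 2396, 1823 and 2537 units in apoE-/-. Its wild-type arrays were close together and its apoE-/- arrays all higher, with a log2 change of 0.99 ± 0.13 (SE, adjusted p = 0.00534).

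The Lyz2 signal cannot be assigned to Lyz2 alone, because Lyz1 is a closely similar neighbouring copy and probes may read both. A pair of Lyz1 probe sets of the type that the manufacturer marks as prone to cross-hybridisation gave log2 changes of 1.08 ± 0.14 and 1.20 ± 0.16 (SE). A further Lyz1 probe set without that mark read 150.1 to 169.6 units in wild type and 161.5 to 243.1 in apoE-/-, overlapping, with a log2 change of 0.37 ± 0.20. Which copy rose is uncertain from the 2 higher readings, and the 1423547_at probe set annotated to Lyz2 is the value given above.

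Folr2 and Mrc1 rose less, and their calls depended on single arrays. Folr2, which binds folate at the macrophage surface, read 852, 721 and 621 units in wild type and 1454.5, 1068 and 1399 units in apoE-/-, without overlap. Its log2 change was 0.82 ± 0.16 (SE, adjusted p = 0.0263). Mrc1, the mannose receptor that takes up glycoproteins, read 2034, 1763 and 2042 units in wild type and 3330, 2645 and 3623 units in apoE-/-, also without overlap. Its log2 change was 0.70 ± 0.13 (SE, adjusted p = 0.0224). Groups without overlap, apoE-/- being higher, were found for 10.9% of all genes tested. Leaving out replicate 2 or 3 of wild type, or replicate 1 or 3 of apoE-/-, left 2 markers called, Adgre1 and Lyz2, and leaving out wild-type replicate 1 left 3, Mrc1 being lost. The adjusted p for Folr2 ranged from 0.0102 to 0.121 over the alternatives and that for Mrc1 from 0.00501 to 0.103, with log2 changes of 0.71 to 0.96 and 0.61 to 0.83. Neither was called without an intensity trend in the variance (limma adjusted p = 0.0569 and 0.0590).

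For all 4 called markers, replicate 2 was the lowest of the apoE-/- arrays. The same array was lowest for macrophage genes in general, whose mean log2 value over 20 genes was 10.89 there, against 11.38 and 11.63 on apoE-/- replicates 1 and 3 and a wild-type range of 9.46 to 9.51. With that array left out all 4 markers were called, with log2 changes of 1.55 for Lyz2 and 1.13 for Adgre1.

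Promoters of the markers were read from the RefSeq table (GRCm38.p6), since 3 of the called markers with a listed promoter, Lyz2, Mrc1 and Folr2, moved together. The table held 6 of the 9 markers, with 8 start sites. The 250 bases before the start are shown for the 3 called markers and for Cd163, which was not called. Capitals mark 2 kinds of letter match on either strand: GAGGAAG, a form of the site of the macrophage factor PU.1, and GGAAGT, a core shared by its ETS family, which overlaps the former in GGAAG. The windows lie at chr10:117282273-117282522 (minus strand), chr2:14229164-14229413 (plus strand), chr7:101857191-101857440 (minus strand, the upstream of 2 listed starts) and chr6:124304401-124304650 (plus strand).
Lyz2: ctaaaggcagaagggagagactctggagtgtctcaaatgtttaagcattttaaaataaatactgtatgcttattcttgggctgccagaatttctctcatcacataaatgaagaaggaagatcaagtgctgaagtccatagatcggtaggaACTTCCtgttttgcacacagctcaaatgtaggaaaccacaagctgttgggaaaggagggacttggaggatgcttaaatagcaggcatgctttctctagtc
Mrc1: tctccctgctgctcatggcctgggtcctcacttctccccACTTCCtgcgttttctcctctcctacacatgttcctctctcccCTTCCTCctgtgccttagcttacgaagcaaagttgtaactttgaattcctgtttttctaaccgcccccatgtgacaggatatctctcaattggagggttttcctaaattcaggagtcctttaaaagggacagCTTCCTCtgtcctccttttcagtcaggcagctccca
Folr2: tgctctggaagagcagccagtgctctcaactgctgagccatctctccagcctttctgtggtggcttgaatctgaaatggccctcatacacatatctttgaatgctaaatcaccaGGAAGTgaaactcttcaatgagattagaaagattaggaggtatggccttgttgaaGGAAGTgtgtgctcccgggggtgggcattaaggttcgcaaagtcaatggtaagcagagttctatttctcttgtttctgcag
Cd163: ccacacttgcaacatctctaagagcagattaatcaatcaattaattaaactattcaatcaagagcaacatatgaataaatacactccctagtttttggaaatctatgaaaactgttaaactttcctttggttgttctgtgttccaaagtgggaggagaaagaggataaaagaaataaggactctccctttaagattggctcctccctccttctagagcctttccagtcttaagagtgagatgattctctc
GGAAGT stood once in the Lyz2 window, 100 to 95 bases before the start, once in Mrc1 and 2 times in the Folr2 window shown, and 19.7% of 32851 promoter windows of this length hold it. GAGGAAG stood 2 times in Mrc1, and 10.6% of all windows hold it. The window of the other listed Folr2 start, at chr7:101845332-101845581 (minus strand), held neither. Among the uncalled markers Cd163 alone held neither, Cbr2 held GAGGAAG once, and of the 2 F13a1 starts 1 held GAGGAAG and the other GGAAGT. The Lyz2 and Folr2 windows lacked GAGGAAG, so the matches did not separate called from uncalled markers. A core of MAF recognition elements, TGCTGAC, was in none of the 8 marker windows and in 3.81% of all. The Lyz1 window matched Lyz2 at 60.8% of positions without gaps and held GGAAGT at the same distance from the start. These matches describe letters only and were chosen after the windows had been searched.

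The remaining receptors and the enzyme of the resident set did not pass the test. Lyve1, which binds hyaluronan and marks resident macrophages and lymphatic vessels, read 1313, 1658 and 936.5 units in wild type and 1270.2, 1345 and 1232 units in apoE-/-. The apoE-/- values lay inside the wild-type range. The log2 change was 0.01 ± 0.18 (SE, adjusted p = 0.973), with a 95% interval of -0.40 to 0.43. The second Lyve1 probe set read 538, 864 and 549 units in wild type and 788, 849.9 and 744 in apoE-/-, again overlapping, with a log2 change of 0.31 ± 0.18. On both probe sets wild-type replicate 2 was the highest of the 6 arrays.

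Cd163, the receptor that clears haemoglobin bound to haptoglobin, read 714, 676.5 and 496 units in wild type and 580.4, 597 and 721 in apoE-/-. The groups overlapped, and the log2 change was 0.02 ± 0.16 (SE, adjusted p = 0.962, 95% interval -0.35 to 0.39). Changes in Cd163 of more than 1.31-fold upward or below 0.79-fold lie outside that interval. Cbr2, a carbonyl reductase found in resident macrophages and in other cells, was the only marker with a negative change. It read 6450.1, 7239 and 6879 units in wild type and 6197, 6422 and 5268 units in apoE-/-. The groups did not overlap, although the lowest wild-type and highest apoE-/- readings were close, and the log2 change of -0.20 ± 0.10 (SE, adjusted p = 0.325) did not pass. Groups did not overlap, with apoE-/- lower, in 13.8% of all genes tested.

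F13a1, the catalytic chain of clotting factor XIII, read 2258, 2508 and 1880.0 units in wild type and 3073, 2365 and 2706 in apoE-/-. The replicate 2 array of apoE-/- read below the highest wild-type array, and the log2 change was 0.29 ± 0.13 (SE, adjusted p = 0.292, 95% interval -0.01 to 0.60). Platelet genes, another source of F13a1, were read beside it: 0 of 6 were called by limma, with 2 lower at an unadjusted p under 0.05. Of all genes tested, 0.483% were called lower, and 8.81% were lower at the unadjusted threshold. The platelet list had a median log2 change of -0.33, and its summed intensity was 3019 to 7153 units in wild type and 2965 to 3548 in apoE-/-. Their part in the F13a1 value was not tested.

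Maf was the marker whose probe sets disagreed. The probe set of highest mean (1456060_at) read 1793, 1560 and 1758 units in wild type and 1929, 1921 and 2081 in apoE-/-. These groups did not overlap, which held with apoE-/- higher for 10.9% of all genes tested. The log2 change was 0.21 ± 0.09 (SE, adjusted p = 0.265). Among the other Maf probe sets the log2 change ranged from -0.32 ± 0.19 for 1444073_at to 0.62 ± 0.18 for 1437473_at, the latter read at 159.8 to 201.8 units in wild type and 251.5 to 345.5 in apoE-/-. The probe sets 1435828_at and 1447849_s_at had log2 changes of -0.02 ± 0.15 and 0.06 ± 0.11. The sixth, 1447945_at, at 27.2 to 83.9 units, was under the filter on low intensity and was not tested. In the fit over 27022 probe sets no Maf probe set passed, and 4 of the 14 marker probe sets tested were called, where 2.44% of all probe sets were called higher. These 4 were the probe sets of Lyz2, Adgre1, Folr2 and Mrc1. When the median of its probe sets stood for Maf, its log2 change was -0.02, so its direction depended on the probe set.

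**Figure D2:**
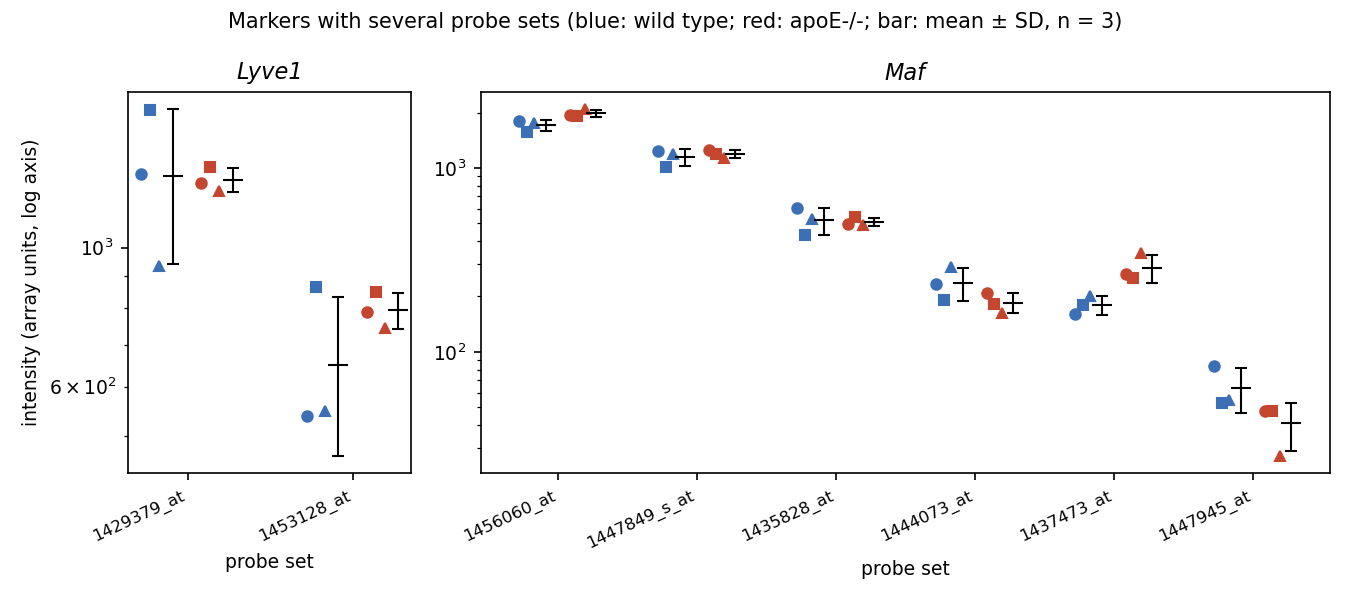
Intensity in array units (log axis) of the 2 Lyve1 and 6 Maf probe sets on the 3 wild-type (blue) and 3 apoE-/- (red) arrays, with symbols for replicates 1 to 3 and bars for the mean ± SD (n = 3). Maf 1437473_at and 1456060_at lie higher in apoE-/- on every array and 1447945_at lower, while the other Maf and both Lyve1 probe sets overlap.

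Of 27 other listed genes associated with resident vascular macrophages, 24 were above the filter with a named probe set, and of these 1 rose and none fell. That share is near the 3.15% of all genes tested that rose, so the count says nothing particular about these genes. The riser was Fcrls, an Fc receptor-like protein, with 412 ± 43.7 units in wild type and 1154 ± 376 in apoE-/- (SD, n = 3). Its log2 change was 1.40 ± 0.22 (SE, adjusted p = 0.0126). With wild-type replicate 3 or apoE-/- replicate 1 left out, limma called 0 of the 24, and with apoE-/- replicate 2 left out it called 3. The median log2 change of the 24 was 0.27, against -0.05 over all genes tested. Of the 24, 21 were positive, against 5356 of all 13031 genes. At an unadjusted p under 0.05, 8 of the 24 were higher, against 9.56% of all genes tested. Timd4, the phosphatidylserine receptor that marks long-lived residents, read 200.3 ± 6.57 units in wild type and 203.8 ± 12.4 in apoE-/- (SD, n = 3). Its log2 change was 0.02 ± 0.16 (SE, adjusted p = 0.954). Those readings lay near the array medians of 178 to 195.5 units, and how much of them is background was not tested. The chemokine Pf4 and the selenium carrier Selenop had log2 changes of 0.03 ± 0.13 and 0.08 ± 0.11. The largest uncalled value was that of the endothelin receptor Ednrb, at 0.67 ± 0.17 (adjusted p = 0.0827). Next among the uncalled were Retnla, Dab2 and Ninj1, at 0.45 ± 0.13, 0.44 ± 0.11 and 0.42 ± 0.09 (SE). Their adjusted p-values were 0.110, 0.0692 and 0.0514. Timd4, Pf4, Selenop, Ednrb, Retnla, Dab2 and Ninj1 were named after their values were seen.

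Genes of macrophages in general changed by more than most of the markers. Of 20 listed and tested, 18 rose, with a median log2 change of 1.89. Ms4a7, a membrane protein of macrophages, was the largest, with 380 ± 62.0 units in wild type and 3342 ± 1056 in apoE-/- (SD, n = 3, log2 change 3.05 ± 0.22, SE). Among these 20, 15 had a larger change than Lyz2, 17 than Adgre1, 18 than Folr2 and 18 than Mrc1. F13a1 and Maf were each exceeded by 19, and Lyve1, Cd163 and Cbr2 by all 20. The pair not called was Csf1r, the growth factor receptor of the lineage, at 0.50 ± 0.14 (SE, adjusted p = 0.0999), and Mertk, a receptor for dying cells that residents carry, at 0.12 ± 0.08 (adjusted p = 0.498), both named after their values were seen. The filter on low intensity used the mean over all 6 arrays. Genes dim in wild type could thus pass it through their apoE-/- values, which favours higher counts and medians. Such genes included Mmp12 (14.2 to 64.8 units in wild type) and Trem2 (17 to 34) of the foam cell list. Ccl2 (20.3 to 85.9) of the monocyte list was another. With that limit, the foam cell list had 10 of 14 tested genes called higher with a median of 2.88, where 3.15% of all genes tested were called higher. The list of monocytes and inflammatory macrophages had 5 of 9, with a median of 0.82. Leaving out wild-type replicate 3 brought the last count to 3, and leaving out replicate 1 or 3 of apoE-/- brought it to 2. Of its 5, Lyz1 may share signal with Lyz2, and Ccr2, the receptor that brings monocytes into tissue, read 162 ± 12.9 units in wild type and 644 ± 172 in apoE-/- (SD, n = 3). Ccr2 was not called when the median of its probe sets stood for the gene (adjusted p = 0.103).

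**Figure D3:**
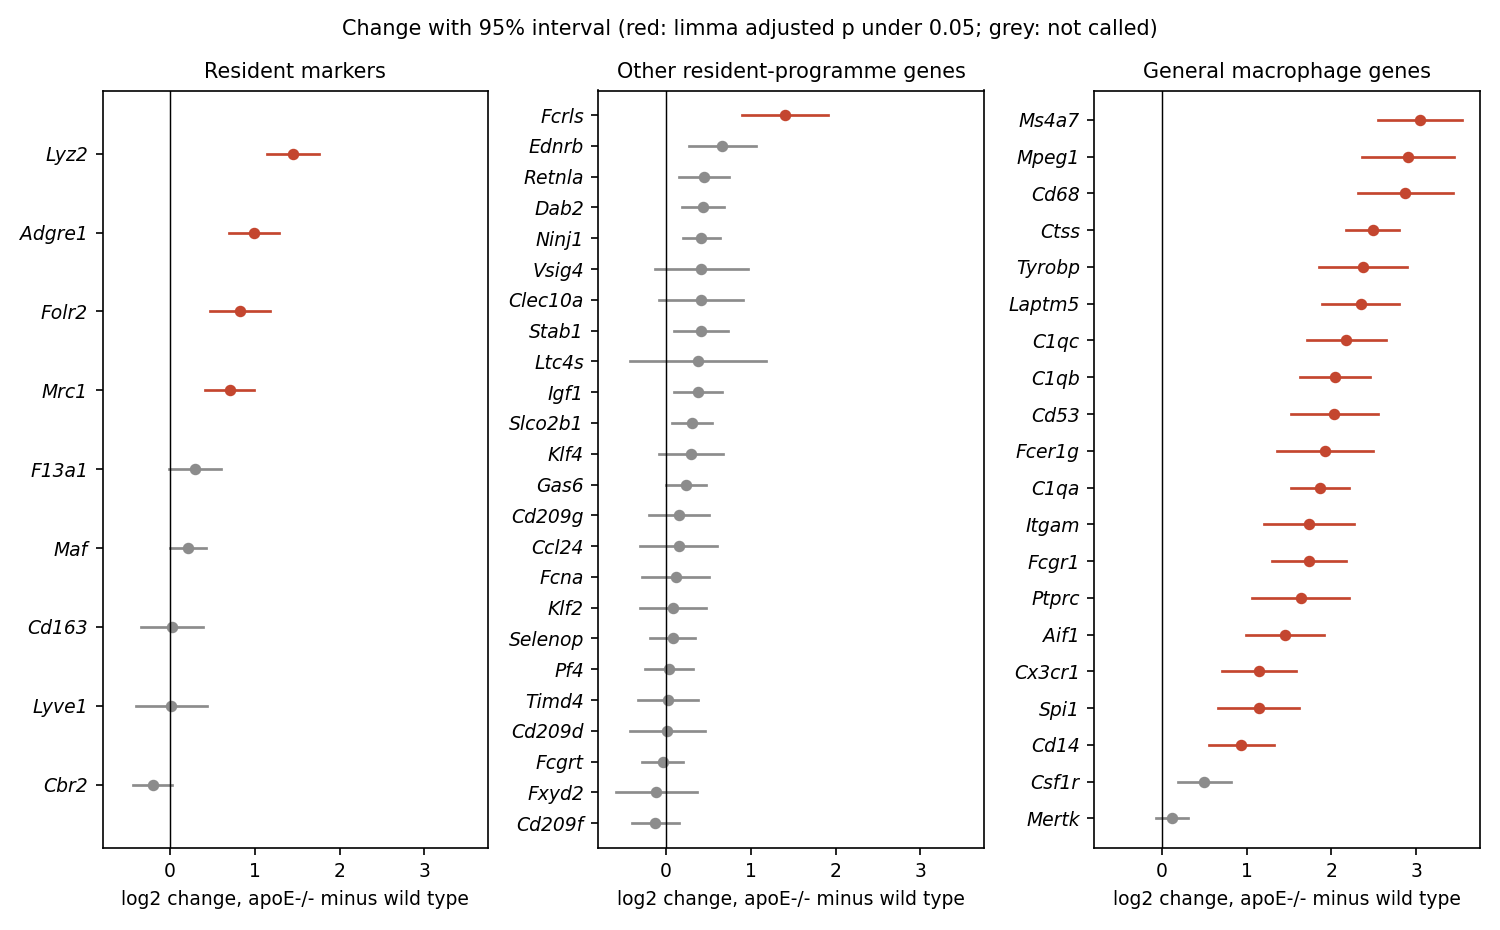
Log2 change (apoE-/- minus wild type, horizontal axis, log2 units) with its 95% interval for the 9 markers, 24 other genes of the resident programme and 20 general macrophage genes. Red marks an adjusted p under 0.05. Called genes number 4, 1 and 18 in the 3 panels.

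To place each marker beside the macrophage signal of the same array, the mean log2 value of the 20 general genes was subtracted from the marker's log2 value. That mean was 9.48 ± 0.03 in wild type and 11.30 ± 0.37 in apoE-/- (SD, n = 3), so a marker's difference is its own change minus 1.82. Relative to macrophage genes, 8 of 9 markers were lower on every apoE-/- array than on every wild-type array, which also held for 97.8% of all genes tested. The difference was -2.03 for Cbr2, -1.81 for Lyve1, -1.80 for Cd163, -1.61 for Maf and -1.53 for F13a1. For the called markers it was -1.12 for Mrc1, -1.0 for Folr2, -0.84 for Adgre1 and -0.37 for Lyz2, the last with overlapping groups. In an exact permutation test (two-sided) each of the 8 had p = 0.1, the smallest that 3 arrays against 3 allow, and Lyz2 had p = 0.2, so none could pass at 0.05. A limma fit of these relative values over all genes, added after seeing the data, gave 95% intervals of -1.43 to -0.24 for Adgre1 (adjusted p = 0.00601) and -0.97 to 0.22 for Lyz2 (adjusted p = 0.224). The other 7 markers were called lower there too, but so were 98.4% of all genes. Neither count therefore says anything particular about the markers. On that scale the moderated standard error was the same for every gene, 0.30. The same mean was subtracted from every gene, so all genes share its spread over 3 arrays per genotype. The fit pools genes as if they were independent. Its intervals and p-values can therefore understate the uncertainty, and no conclusion is drawn from them.

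**Figure D4:**
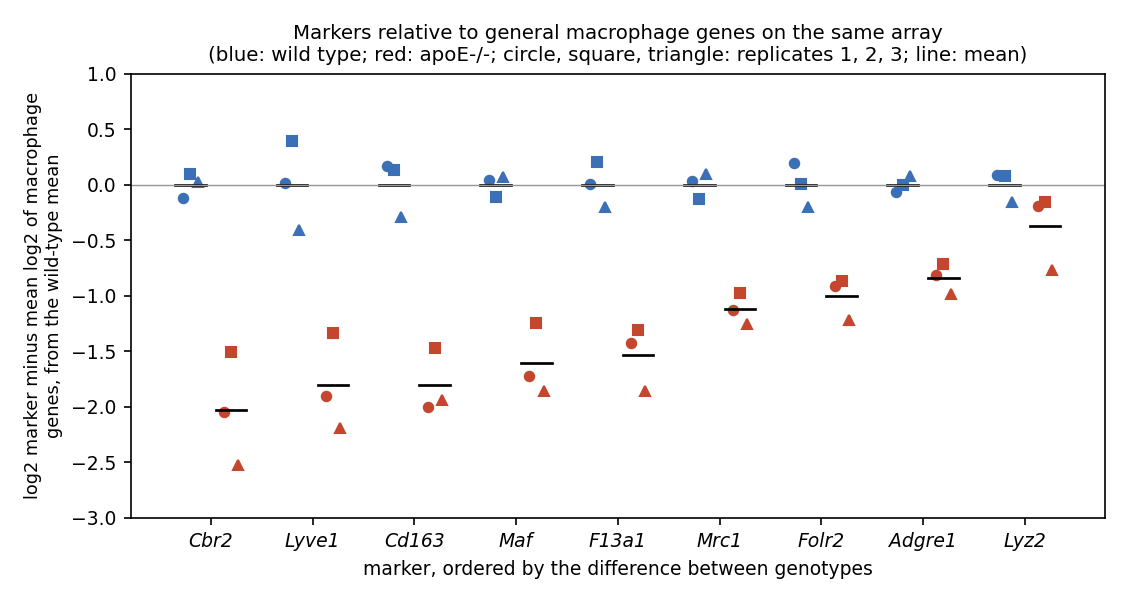
Log2 value of each marker minus the mean log2 value of 20 general macrophage genes on the same array, shown relative to the wild-type mean of that marker (vertical axis, log2 units), for wild type (blue) and apoE-/- (red). Symbols are replicates 1 to 3 and lines group means (n = 3), which in apoE-/- run from -2.03 for Cbr2 to -0.37 for Lyz2.

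Markers of other cells that share these genes were read beside them. Of all genes tested, 3.15% were called higher, and 9.56% were higher at an unadjusted p under 0.05. Of 5 lymphatic endothelial genes tested, which bear on Lyve1, 0 were called by limma and 2 were higher at an unadjusted p under 0.05. The list median was 0.25, and the summed intensity was 3199 to 4176 units in wild type and 3797 to 5587 in apoE-/-. The smallest p was that of podoplanin (Pdpn), with a log2 change of 0.64 ± 0.21 (SE, adjusted p = 0.155), and it passed without apoE-/- replicate 2 (adjusted p = 0.0145). Prox1, the factor that defines lymphatic endothelium, read 2.4 to 60 units over its 3 probe sets and was under the filter. Of 7 neutrophil genes, which bear on Lyz2, 0 were called by limma and 1 was higher at an unadjusted p under 0.05, Mmp8, at 153 ± 13.1 and 223 ± 9.72 units (SD, n = 3). The neutrophil sums overlapped, at 1657 to 2809 and 1815 to 2659 units, and the granule genes Camp and Elane read at most 26.7 and 166.1 units on any array. Prox1, Camp and Elane were named after their values were seen. The part of these cells in the marker values was not tested.

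Wall and fat genes were read in the same way. Of all genes tested, 3.15% were called higher and 0.483% lower. At an unadjusted p under 0.05, 9.56% were higher and 8.81% lower. With at most 1 call on each list below, the counts of calls say nothing particular about these cells. Smooth muscle had 0 of 10 called by limma, with 3 lower at an unadjusted p under 0.05 and a median log2 change of -0.15; Smtn, a protein of the contractile apparatus, had the smallest p (-0.33 ± 0.09, SE, adjusted p = 0.0858). Adipocyte genes had 0 of 6 called, 1 lower at an unadjusted p under 0.05, and a median of -0.51, with Retn (resistin) at -0.51 ± 0.20 (adjusted p = 0.229). The summed adipocyte intensity was 18010 to 37039 units in wild type and 15212 to 23188 in apoE-/-. Every adipocyte gene tested read highest on wild-type replicate 2, the array on which both Lyve1 probe sets were also highest. Whether the fat content of that preparation bears on these values was not tested. Blood endothelium had 1 of 9 higher (Emcn, a surface sialomucin), adventitial fibroblasts 1 of 10 (Lum, lumican) and dendritic cells 1 of 6 (Irf8, a transcription factor). Of the 6 dendritic cell genes only 3 had a positive log2 change, and the list median was 0.24. The Emcn call was lost with quantile normalization, without the filter, without the intensity trend, with the replicate block, and when wild-type replicate 1 or 3 or apoE-/- replicate 1 or 3 was left out, and the Irf8 call when wild-type replicate 3 or apoE-/- replicate 1 was left out.

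The genes whose values over the 6 arrays lay nearest to those of a called marker were found by Euclidean distance between log2 values centred on the wild-type mean. Nearest to Adgre1 were Cotl1 (distance 0.11), Trim25 (0.13) and Sema4d (0.13). Nearest to Mrc1 were Myof (0.11), Map3k8 (0.14) and Man2b1 (0.14). Folr2 had Gda (0.19), Vmp1 (0.23) and Fxyd5 (0.23), and Lyz2 had Ttc9 (0.29), Ptgs2 (0.29) and Sdc3 (0.39). Since a called marker's nearest genes were chosen for resembling a marker that rose, their own rise follows from the choice: all 12 rose in the same fit, with log2 changes of 0.63 (Man2b1) to 1.51 (Ptgs2).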

How the data were processed

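The deposited values are linear intensities of 45101 probe sets on 6 single-colour Affymetrix mouse arrays. The authors had scaled these deposited intensities: after trimming 2% of probe sets at each end every array mean was 500.0. The software used is not given in the sources used here. Symbols came from the platform annotation, updated through the GRCm38.p6 gene table. A gene symbol of its own was given for 34958 probe sets, and 932 with several were not used.

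Intensities were taken as log2(intensity + 16), which understates changes of dim probe sets. Leaving out 64 control probe sets and the lower 40% by mean log2 value left 27022 probe sets and, with the highest-mean probe set for each gene, 13031 genes. The comparison of genotypes used lmFit and eBayes with an intensity trend (limma 3.58.1, R 4.3.3). Calls needed a Benjamini-Hochberg adjusted p under 0.05, and the fit was tested on simulated data. Intervals are 95%, and the number of arrays limits precision. The markers and 12 further gene lists were chosen with earlier results of these data known. Genes could be named from fixed groups, the first being all markers. From each list these were up to 4 called genes by size of change, or that of smallest p where none was called. The last group was the 3 nearest genes to each called marker. Not every such list gene is named in the text. Genes outside this rule, except Apoe, are said to be named after their values were seen. Alternatives were other offsets (1, 64), scalings, filters, probe set choice, moderation, array weights, a replicate block and leaving out each array.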

Additional observations from a re-analysis of the deposited data

How the results depend on the processing

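Adgre1 and Lyz2 were called in all 17 settings, the main one included, and no marker beyond the 4 reported was called in any. The count of markers called was 2 without an intensity trend and 2 to 4 when single arrays were left out. Among marker probe sets, called in a fit of their own, it was 2 without an intensity trend, 2 without the filter on low intensity and again 2 to 4 when single arrays were left out, against 4 in the main fit. Genes called over the 12 other lists together numbered 37 in the main fit. They numbered 31 to 40 in the alternatives that kept every array and 26 to 43 with single arrays left out. In the main fit 3.15% of all genes tested were called higher and 0.483% lower. Of all probe sets tested there, 2.44% were called higher. The number of markers whose value relative to general macrophage genes was lower on every apoE-/- array than on every wild-type array was 8 or 9 under the alternatives run for it, and 97.8% of all genes tested did the same in the main one.

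Values of uncalled markers near 0 changed sign. With single arrays left out the log2 change of Lyve1 ran from -0.20 to 0.21 and that of Cd163 from -0.14 to 0.12, the lowest of each without wild-type replicate 3. Maf was -0.024 with the median of its probe sets. Its probe set 1435828_at was 0.0019 with median centring and ran from -0.15 to 0.088 with single arrays left out, and 1447849_s_at from -0.026 to 0.12. The cause was not tested.

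The genotypes share replicate numbers, but deviations of same-numbered arrays from their group means correlated at -0.18 to -0.05 over 13031 genes, and no array correlated best with its own number, so the numbers were not taken as pairs. With the replicate block 4 markers, 4 marker probe sets and 31 list genes were called. Array number and the dimness of some Maf probe sets limit what these values can show.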
